A study of Mus musculus with 30 samples.

Results

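Luminal and basal cells of the virgin mammary gland (MG) were compared in mice with intact Rank. The comparison takes the 3 luminal and the 3 basal virgin K8imTmG libraries out of 30 libraries in the series. Members were taken by lineage, stage and genotype as labelled, and their profiles were read across all 11137 genes of the deposited table, of which 10796 were tested. The series sequenced 3′ mRNA ends of both lineages, sorted from virgin or parous mice. Parous means that the mouse had been through pregnancy. K8imTmG mice (K8rta:TETO CRE:mTmG) carry a Cre recombinase that doxycycline switches on under the Krt8 promoter and a reporter that turns from Tomato to GFP in recombined cells. K8iDRank mice carry the same alleles and a floxed Rank gene (RANK fl/fl), so that Rank is a target in their luminal cells and not in their basal cells. Doxycycline was given at 1 mg/ml in both genotypes, from week 3 to week 8 per the labels, and the age at collection is not given in the sources used here. CD45+ and CD31+ cells were excluded by FACS, luminal cells were GFP+ CD24 high CD49f low, and basal cells were CD24 low CD49f high. GFP is named for the luminal gate alone, so the luminal libraries hold cells selected for recombination and the basal libraries were not selected for it. Mice 531 and 538 gave both lineages, mouse 533 gave only a luminal and mouse 568 only a basal library.

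The mammary duct is a bilayer. Inner luminal cells line the lumen and include a hormone-sensing population with oestrogen and progesterone receptors and a progenitor population that supplies alveolar, milk-making cells. Outer basal cells lie on the basement membrane, most of them are myoepithelial, and they contract in response to oxytocin to expel milk. Hormone-sensing cells receive the systemic signal and pass it to neighbouring cells through secreted ligands such as amphiregulin, Wnt4 and Rankl.

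Normalized counts, the deposited unit, are deduplicated reads divided by a size factor for each library. The luminal libraries held 1862812 to 2422876 reads and the basal libraries 340445 to 1172427, so that 1 read was worth 0.524 to 0.736 normalized counts in luminal and 1.44 to 5.43 in basal libraries. Ribosomal protein genes took 9.74% to 10.9% of the reads of the luminal and 18.1% to 23.4% of those of the basal libraries. Mitochondrially encoded genes took 2.23% to 2.45% and 4.64% to 6.15%. Clec2d, which encodes a C-type lectin, splits all 30 libraries at a normalized count of 30. It was at 0.641, 1.05 and 2.21 in the luminal libraries of mice 531, 533 and 538, and at 165, 149 and 152 in the basal libraries of mice 531, 538 and 568, the order kept below. In the 6 libraries compared the lineage and the side of this split cannot be told apart. The virgin K8iDRank libraries share none of these 6 and have the sides exchanged, with Clec2d at 65.6 to 146 in 3 luminal and 2.03 to 8.68 in 4 basal libraries. Their lineage difference is given beside the results below as the K8iDRank difference, and that of the 2 luminal and 4 basal parous K8imTmG libraries on the Clec2d-high side as the parous difference. Rank (Tnfrsf11a) was at 11.5 to 23.8 in luminal and 45.01 to 78.1 in basal virgin K8iDRank libraries, and 3′ reads do not show whether inner exons were deleted.

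Differences are luminal minus basal on the log2(normalized count + 1) scale, and a gene passed the test where limma's Benjamini-Hochberg adjusted p over all genes was below 0.05. Of 10796 genes, 3906 (36.2%) passed, 1861 (17.2%) with the higher level in luminal and 2045 (18.9%) with the higher level in basal cells. Both shares are the background for every list count below. The difference went beyond 1 on the log2 scale in 1628 of the luminal and 1896 of the basal genes, and beyond 4 in 177 and 366. Over all genes tested the median difference was 0.04, with quartiles of -0.85 and 0.83. The luminal libraries all lay above the basal libraries in 25.8% of the genes and all below them in 25.7%. A difference between such libraries can come from fewer cells of a type or from less RNA per cell, which cannot be told apart. Depth limits what can be read from a low level, since the sum of 3 reads over the 3 basal libraries is worth 2.67 normalized counts and over the luminal libraries 0.622.

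**Figure D1:**
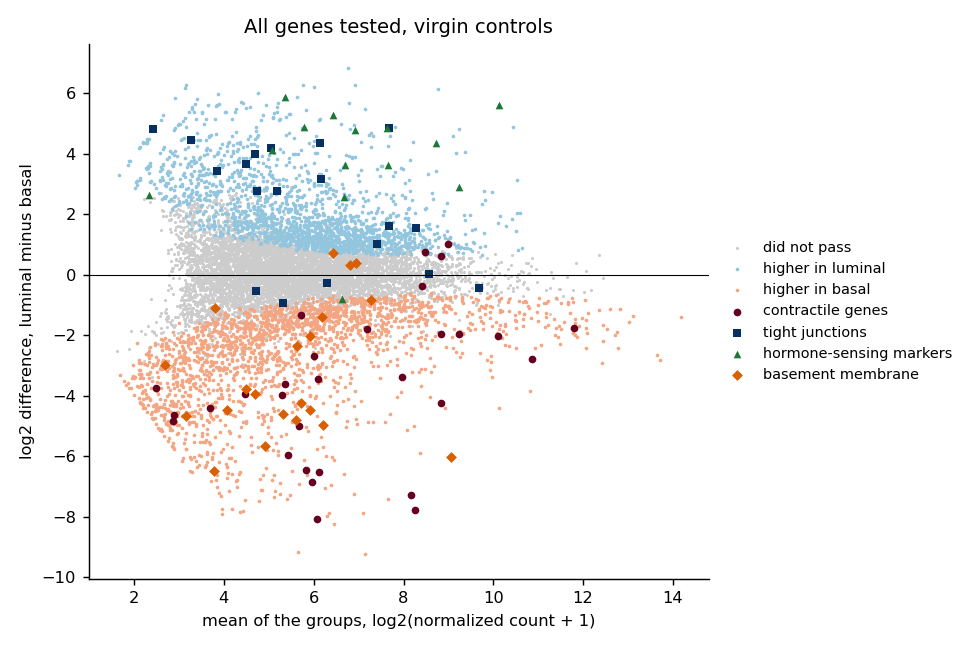
Difference between luminal and basal virgin control libraries (y axis, log2, luminal minus basal) against the mean of both groups (x axis, log2 of the normalized count plus 1) for 10796 genes, each point a gene. Pale blue and pale red points passed the test, grey points did not, and contractile and basement membrane genes lie mostly below 0 while tight junction genes and hormone-sensing markers lie mostly above it.

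The keratins that define both lineages lay far apart. Keratin 8 and keratin 18 form the filament pair of simple epithelia. Krt8 (GRCm39 chromosome 15, 101905133 to 101912917) was at 3134, 1768 and 2465 in luminal and 664, 351 and 201 in basal libraries, a difference of 2.73 (SE 0.41, limma adjusted p = 0.00109). Every luminal library was above every basal one, yet the basal libraries were far from 0. Krt18 (GRCm39 chromosome 15, 101936615 to 101940462) was at 2399.9, 1844 and 3536 against 214, 207 and 76.1, a difference of 4.05 (SE 0.41). Krt7 and Krt19, the other simple keratins listed, differed by 6.27 and 4.898, and Krt7 had no read in the basal library of mouse 568. Keratin 5 and keratin 14 are the stratified pair. Krt5 (GRCm39 chromosome 15, 101615505 to 101621346) was at 5.77, 2.62 and 3.68 in luminal and 1079, 1244 and 1309.6 in basal libraries, a difference of -7.96 (SE 0.301, limma adjusted p = 1.06e-06). Krt14 (GRCm39 chromosome 11, 100093988 to 100098490) was at 17.3, 9.96 and 16.2 against 2366, 2137 and 3418, a difference of -7.42 (SE 0.29). Krt15 and Krt17 followed with -4.02 and -7.399. All 4 luminal and all 4 basal keratins tested passed in their own direction, so the markers bear out the labelled lineages. The sorting antigens went the way of the gates, with Cd24a (CD24) at 2392, 1772 and 1522 in luminal and 544, 413 and 217 in basal libraries and Itga6 (CD49f) at 520.3, 484 and 667 and 965, 938 and 886, and they are no finding.

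**Figure D2:**
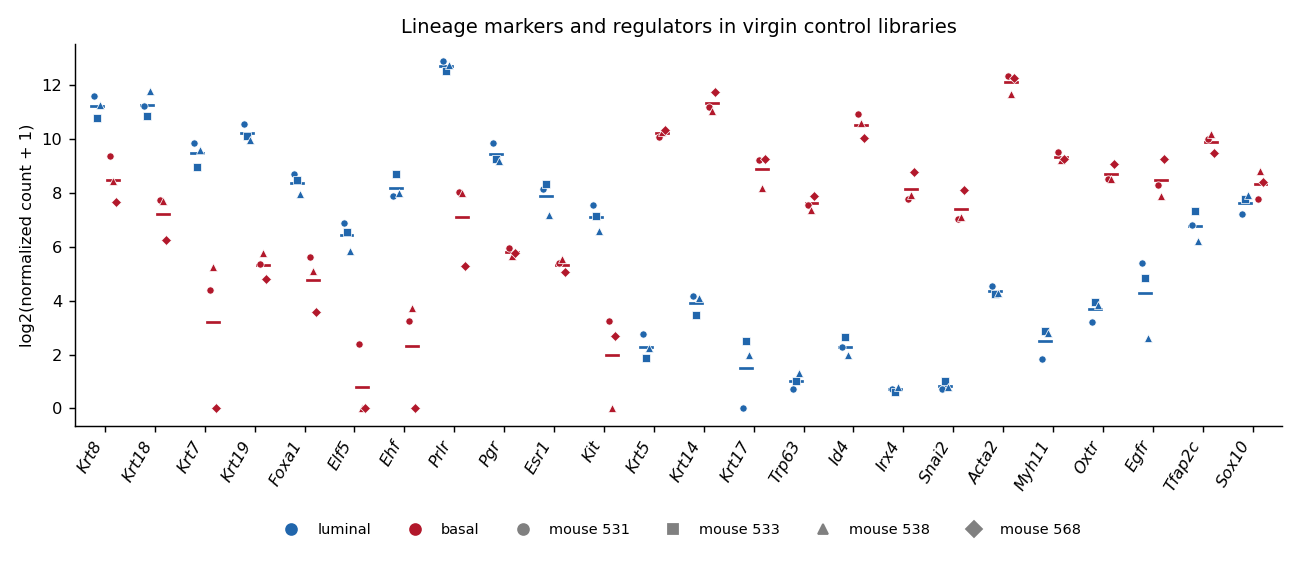
Normalized counts (y axis, log2 of the count plus 1) of 24 genes (x axis) in each virgin control library, with luminal libraries in blue, basal libraries in red, the marker shape giving the mouse and a bar at the group mean. The 2 groups are apart in every gene shown except Sox10, and Tfap2c lies higher in basal libraries.

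Transcription factors of the luminal lineage were mostly higher in luminal cells, with 14 of 22 tested passing in that direction and 1 in the other (median 1.61, against 0.04 over all genes). Foxa1, the pioneer factor of oestrogen receptor binding, was at 417, 358 and 248 in luminal and 48.8, 33.1 and 10.9 in basal libraries, a difference of 3.62 (SE 0.49, limma adjusted p = 0.000615). Its K8iDRank and parous differences were 6.76 and 6.64, both past the test. Ehf, an epithelial Ets factor, was at 234, 419 and 258 against 8.62, 12.4 and 0. Elf5, the Ets factor of alveolar fate, was at 119, 93.3 and 56.7 in luminal libraries and rested on 3 reads in the basal ones, and Spdef, a factor of secretory epithelia, was at 38.4, 55.1 and 99.4 against 1 basal read. The groups did not overlap for any of these factors. Tbx3, which belongs to the hormone-sensing programme, differed by less, 285, 372 and 299 against 122, 141 and 81.5 (difference 1.49), and its K8iDRank difference of 0.52 and parous difference of 0.33 did not pass. Gata3, the regulator of luminal fate, ranged from 1195 to 3223 in luminal and from 386 to 823 in basal libraries, a difference of 1.704 that passed here and in the parous libraries (1.39) but not in K8iDRank (0.74). The exception of the list was Tfap2c, which encodes AP-2 gamma, a factor of epithelial development. It was at 112, 161 and 72.9 in luminal and 1039.9, 1169.7 and 712 in basal libraries, a difference of -3.11 (SE 0.32, limma adjusted p = 0.00015). The basal side was higher in K8iDRank (-2.46) and in the parous libraries (-2.22) as well, and both passed.

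Of the basal transcription factors 16 of 25 tested were higher in basal and 2 in luminal cells (median -1.51). Trp63 (GRCm39 chromosome 16, 25502513 to 25710852), the p53 relative that maintains basal epithelia, was at 0.641, 1.05 and 1.47 in luminal and 188, 165 and 239 in basal libraries, a difference of -6.598 (SE 0.404, limma adjusted p = 1.04e-05). Id4, an inhibitor of basic helix-loop-helix factors, was at 3.84, 5.24 and 2.94 against 1975, 1546 and 1054. The homeobox gene Irx4 was at 0.641, 0.524 and 0.736 against 218, 244 and 435, and Snai2, known for its part in epithelial-mesenchymal transition, at 0.641, 1.05 and 0.736 against 131, 136 and 277. Each of these 4 lay at a few reads in every luminal library and above 100 in every basal one. Egr2, a zinc finger factor, was present on both sides, 32.7, 34.1 and 12.5 in luminal and 1225, 794 and 408 in basal libraries. All 5 passed with the same direction in K8iDRank, from -6.49 for Irx4 to -4.16 for Egr2. Sox9 was higher in luminal cells, at 2723, 2357 and 1466 against 945, 1252 and 1255 (difference 0.89, limma adjusted p = 0.0351). The luminal calls of the list fell to 1 without luminal mouse 538 and to 0 without any other single library or with the mouse as a fixed block. The call of Sox9 was lost without the luminal libraries of mice 531 (0.70) or 533 (0.81) and without any 1 basal library (0.75 to 0.96). Sox10 ranged from 148 to 241 in luminal and from 217 to 446 in basal libraries, which overlapped, with a difference of -0.68 that did not pass. Sox10 passed as basal in K8iDRank (-1.85) and with the Clec2d side as a term over all 30 libraries (-1.23). Its parous difference of -0.58 did not pass. Id3 passed as basal here, 182, 107 and 81.7 against 302, 318 and 309.7, and as luminal in K8iDRank (0.67) and in the parous libraries (1.63).

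Esr1, Pgr and Prlr, the receptors for oestrogen, progesterone and prolactin, were higher in luminal cells, and Oxtr, the receptor for oxytocin, in basal cells. Among 15 hormone receptors 3 passed as luminal and 3 as basal, shares near the 17.2% and 18.9% of all genes, and the median was 0.12. Esr1 (oestrogen receptor alpha) was at 283, 326 and 146 in luminal and 41.7, 45.5 and 32.6 in basal libraries, a difference of 2.56 (SE 0.34, limma adjusted p = 0.00055). Pgr (progesterone receptor) was at 936, 617 and 588 against 61.8, 49.6 and 54.3, and Prlr (prolactin receptor) at 7604, 5943 and 6867 against 259.99, 252 and 38.04, with differences of 3.64 and 5.63. The groups did not overlap in any of the 3, and the lowest basal level of Prlr was that of mouse 568. Oxtr, the oxytocin receptor of myoepithelial cells, was at 8.33, 14.7 and 13.2 in luminal and 366, 364 and 543 in basal libraries (difference -5.03, SE 0.31, limma adjusted p = 1.15e-05). Igf1r, which binds insulin-like growth factors, was at 121, 89.1 and 67.7 against 236, 277 and 234 (difference -1.45), and its parous difference of -0.58 did not pass. The vitamin D receptor Vdr was at 71.8, 68.2 and 78.7 against 144, 112 and 168 (difference -0.93), which did not pass without luminal mouse 531 (-0.92) or 533 (-0.88), or without basal mouse 531 (-0.91) or 568 (-0.79).

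Hormone-sensing markers were high in luminal cells, 12 of 14 tested passing as luminal and 0 as basal (median 4.24, K8iDRank 4.63). The list holds the 3 receptors above and Foxa1. Areg, the EGF-family ligand amphiregulin that oestrogen induces, was at 1076, 1265 and 614 in luminal and 61.8, 45.5 and 10.9 in basal libraries, a difference of 4.85 (SE 0.57, limma adjusted p = 0.000294). Wnt4, a Wnt ligand downstream of progesterone, was at 339, 313 and 219 against 14.4, 8.27 and 5.43 (difference 4.88). Prom1, the pentaspan membrane protein used to sort these cells in other work, was highest in mouse 538, 429.99, 422 and 1130.4 against 21.5, 24.8 and 16.3, and Ly6a (Sca-1), one of a family of similar genes, was at 1626, 1385 and 1939.9 against 274, 236 and 158. All 4 passed as luminal in K8iDRank and in the parous libraries too. Tnfsf11 (Rankl), the ligand of Rank, was at 17.3, 30.9 and 0 in luminal libraries and rested on 1 read in basal ones, and its difference of 2.64 did not pass, while that of K8iDRank (5.16) did. Rank itself (Tnfrsf11a, GRCm39 chromosome 1, 105708358 to 105777170) was at 18.6, 14.2 and 9.57 in luminal and 66.1, 33.1 and 54.3 in basal libraries, a difference of -1.78 (SE 0.42, limma adjusted p = 0.0104). The groups did not overlap, and the same direction passed in K8iDRank (-1.83) and in the parous libraries (-1.88).

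Luminal progenitor and alveolar markers were also mostly luminal, 9 of 13 passing in that direction and 1, Itgb3, in the other (median 2.99, K8iDRank 4.59). Kit, the stem cell factor receptor that marks luminal progenitors, was at 188, 139.99 and 94.9 in luminal and 8.62, 0 and 5.43 in basal libraries (difference 5.11, SE 0.77, limma adjusted p = 0.00111). Aldh1a3, a retinaldehyde dehydrogenase, was at 231, 186 and 252 against 22.98, 37.2 and 21.7. The secreted proteins of this list passed together, with Wfdc18 at 684, 721 and 758 against 131, 61.999 and 141 and Ltf (lactoferrin) at 190.3, 92.3 and 283 against 25.9, 20.7 and 16.3. No library of one lineage reached the other in these 4 genes. Milk-related genes were unequal: Csn3 (kappa-casein) was at 671, 249 and 373 against 45.96, 57.9 and 16.3, whereas Csn2 (beta-casein) gave 1 read over the 3 luminal libraries and 0 over the basal ones and was not tested. Mfge8, a milk fat globule protein, was at 2562, 2127 and 3071 against 878, 707 and 603 (difference 1.83), and it passed the other way in K8iDRank (-0.64). Itgb3, the integrin beta 3 subunit of a progenitor gate, was at 17.9, 6.82 and 2.94 against 56.02, 24.8 and 59.8 (difference -2.42). Its call was lost without basal mouse 531 (-2.24) or 568 (-2.20), and the basal side was also called in K8iDRank (-3.44).

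Of 32 receptors for growth factors and cytokines 6 passed as luminal and 11 as basal (median -0.61), against 17.2% and 18.9% of all genes. Members of the EGF receptor family were called in both directions. Egfr was at 41.7, 27.8 and 5.15 in luminal and 312, 236 and 609 in basal libraries, a difference of -4.18 (SE 0.66, limma adjusted p = 0.00145). Its partners Erbb2 and Erbb3 lay the other way, Erbb2 at 88.4, 124 and 164 against 10.1, 33.1 and 21.7 and Erbb3 at 247, 218 and 99.4 against 20.1, 4.13 and 0. The luminal library of mouse 538 was lowest in Egfr and Erbb3 and highest in Erbb2, and the groups overlapped in none of the 3. The K8iDRank difference of Erbb2, 0.87, did not pass. Met, the receptor of hepatocyte growth factor, was at 178, 192 and 295 against 30.2, 16.5 and 59.8 and the BMP receptor Bmpr1b at 26.9, 23.6 and 12.5 against 0, 4.13 and 0, both luminal. The TGF-beta receptors Tgfbr3 (betaglycan) and Tgfbr1 were basal, at 12.8, 6.82 and 5.15 against 665, 463 and 337 and 16.02, 20.4 and 11.8 against 208, 82.7 and 125. Pdgfrb, which pericytes also express, was at 1.28, 1.05 and 0 against 24.4, 28.9 and 43.5, and its parous difference of -1.84 did not pass.

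Ligands passed as basal in 13 and as luminal in 4 of 29 tested (median -0.79). Ptn (pleiotrophin), a heparin-binding growth factor, was at 3169, 2524 and 3256 in luminal and 224, 66.1 and 76.1 in basal libraries, a difference of 4.82 (SE 0.42, limma adjusted p = 5.69e-05). Mdk (midkine), its relative, was at 8.97, 13.1 and 4.42 against 189.6, 203 and 239, a difference of -4.53 in the other direction. Btc (betacellulin), an EGF receptor ligand, was luminal like Areg, at 66.004, 105 and 128 against 2.87, 4.13 and 5.43. On the basal side the chemokine Cxcl14 was at 3.84, 5.24 and 5.15 against 2983, 3683 and 3777, a difference of -9.24 (SE 0.24, limma adjusted p = 1.42e-07). Cxcl12 (SDF-1), the ligand of Cxcr4, was at 10.3, 6.82 and 1.47 against 539, 331 and 402. Pdgfa was at 22.4, 26.2 and 20.6 against 388, 273 and 293, and Fgf1 at 25.6, 37.7 and 46.4 against 178, 215 and 201. No luminal library reached a basal one in these 5 basal ligands, and all of them passed as basal in K8iDRank and in the parous libraries.

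The receptors Notch1 and Notch3 were higher in luminal cells and the ligands Dll1, Jag2 and Jag1 in basal cells. The pathway signals between touching cells, and Notch activity is known in luminal cells. Of 17 genes 4 passed as luminal and 3 as basal, against 17.2% and 18.9% of all genes, and the basal calls were 5 with the mouse as a block or without luminal mouse 538. Notch1 was at 171, 180.4 and 169 in luminal and 73.3, 33.1 and 27.2 in basal libraries (difference 2.07) and Notch3 at 203, 129.5 and 149 against 25.9, 28.9 and 27.2 (difference 2.49, SE 0.28, limma adjusted p = 0.000246). Hey1, a target of the pathway, was at 127, 172 and 291 against 77.6, 70.3 and 65.2. On the basal side Dll1 rested on 1 read in the 3 luminal libraries and was at 303, 74.4 and 97.8 in the basal ones, Jag2 was at 1.28, 0.524 and 0 against 86.2, 70.3 and 125, and Jag1 at 116, 73.4 and 45.6 against 175, 169 and 168. Jag1 (difference -1.22) did not pass without luminal mouse 533 (-1.22), basal mouse 531 (-1.20) or basal mouse 538 (-1.22), nor in K8iDRank (-0.77). The K8iDRank difference of Notch1, 0.86, did not pass either, whereas those of Notch3 (2.93), Hey1 (2.38), Jag2 (-5.76) and Dll1 (-4.46) passed in the same direction.

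The Wnt ligands that passed were mostly luminal and the receptors and inhibitors mostly basal, with 4 of 29 genes passing as luminal and 18 as basal (median -1.45, K8iDRank -1.04). Beside Wnt4, the ligand Wnt7b was at 107, 135 and 175 in luminal and 2.87, 4.13 and 0 in basal libraries (difference 5.66) and Wnt5b at 45.5, 58.2 and 85.4 against 17.2, 4.13 and 5.43 (difference 2.87). Lgr5, the R-spondin receptor of several stem cell populations, was at 1.28, 0.524 and 3.68 against 214, 252 and 364 (difference -6.74, SE 0.48, limma adjusted p = 2.11e-05). The receptor Fzd7 was at 4.49, 8.91 and 3.68 against 141, 174 and 179. Secreted inhibitors were basal as well. Wif1 rested on 1 luminal read and was at 181, 309.996 and 299 in the basal libraries, Sfrp1 was at 6.41, 3.67 and 2.94 against 205, 583 and 277, and Dkk3 at 12.2, 6.29 and 5.15 against 247, 285 and 315. Groups were apart in all of these genes, and all passed with the same direction in K8iDRank and in the parous libraries.

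Contractile genes were mostly higher in basal cells. Smooth muscle actin, myosin and their regulators let myoepithelial cells squeeze the alveolus. Of 30 genes tested 26 passed as basal and 1 as luminal (median -3.68, K8iDRank -3.44, parous -3.83), and the luminal calls were 2 with the mouse as a block or without the luminal or basal library of mouse 531. Acta2 (GRCm39 chromosome 19, 34217737 to 34232990), smooth muscle actin, was at 22.4, 17.8 and 18.4 in luminal and 5273, 3307 and 5005 in basal libraries, a difference of -7.76 (SE 0.25, limma adjusted p = 4.3e-07). Mylk, the kinase that starts contraction by phosphorylating myosin light chain, was at 17.3, 24.6 and 24.3 against 2953, 3712 and 3950.4. Myh11, the smooth muscle myosin heavy chain, was at 2.56, 6.29 and 5.89 against 731, 603 and 619, and Myl9, its regulatory light chain, at 3.2, 4.19 and 8.1 against 552, 426 and 571. Luminal and basal libraries were far apart in all 4. Cald1 (caldesmon), which binds actin and also has a non-muscle form, was at 110.2, 83.4 and 119 against 1900.3, 1699 and 2309, and the non-muscle light chain Myl6 at 1950.01, 1594 and 2187 against 7382, 4762 and 7499. Those genes were clearly detected on both sides, and neither overlapped. Cnn2 (calponin 2) was at 12.2, 6.82 and 11.8 against 214, 66.1 and 163 and Vcl (vinculin), which ties actin to adhesions, at 92.9, 64.5 and 66.2 against 444, 161 and 239. The luminal exception was Rock1, a kinase that acts on the actin cytoskeleton, at 624, 759 and 772 against 401, 306 and 359 (difference 1.02). It did not pass with the mouse as a fixed block (0.99), and its K8iDRank difference of -0.67 did not pass.

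A CArG box, the site that serum response factor binds in muscle genes, was searched for in the promoters of these genes on both strands. Promoters were 250 bases before to 50 after each RefSeq start on GRCm38.p6. Of 27 contractile genes with a promoter given by RefSeq, 4 held the motif (14.8%), against 1.81% of 27025 genes. The windows of these 4 genes, all of which passed as basal above, are shown, and the capitals mark the motif. Acta2, Mylk and Myh11 were not among the genes with a match.
Cnn2 (chr10:79988534-79988563, plus strand, motif 56 bases before the start): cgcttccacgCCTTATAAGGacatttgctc
Myl6 (chr10:128493040-128493069, minus strand, 50 bases before): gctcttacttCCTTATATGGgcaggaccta
Myl9 (chr2:156775293-156775322, plus strand, 161 bases before): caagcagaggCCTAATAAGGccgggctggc
Vcl (chr14:20929161-20929190, plus strand, 227 bases before): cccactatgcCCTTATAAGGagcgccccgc
The differences of these 4 genes were -3.605, -1.76, -6.46 and -1.796, and all 4 passed as basal in K8iDRank as well (-4.38, -1.19, -6.68 and -1.303). Among the luminal keratin and junction genes 1 of 24 held a CArG box and among the progenitor and alveolar markers 0 of 12. AACCGGTT, a Grhl motif, was in 0 promoters of these 3 sets and in 0.174% of all genes. TTCNNNGAA, a Stat motif, was in 1 of 27 contractile, 2 of 24 keratin and junction and 2 of 12 progenitor and alveolar genes, against 9.55% of all genes. The last 2 were Csn1s1 and Csn2. A match of letters describes the window and is not a measured site.

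Basement membrane genes passed as basal in 17 and as luminal in 0 of 21 tested (median -3.93, K8iDRank -4.05). Type IV collagen forms its network. Col4a1 was at 12.8, 13.6 and 9.57 in luminal and 593, 347 and 321 in basal libraries (difference -4.98, SE 0.32, limma adjusted p = 1.37e-05) and Col4a2, its partner chain, at 7.05, 8.39 and 8.83 against 319, 194 and 255. Lama3 and Lamb3, chains of laminin-332 that anchors hemidesmosomes, were at 9.61, 5.77 and 5.89 against 187, 145 and 249.96 and 7.69, 11.5 and 14.7 against 221, 182 and 277. Sparc, a collagen-binding protein, was at 60.2, 61.3 and 70.6 against 2927, 5340.2 and 4711 (difference -6.01). No luminal library of these 5 genes reached a basal one, and all were called as basal in K8iDRank.

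Interstitial matrix genes were basal in 21 and luminal in 0 of 25 (median -4.103, K8iDRank -3.24). Ccn2 (connective tissue growth factor), a target of Yap signalling, was at 1.28, 1.05 and 0.736 in luminal and 1244, 649 and 1864 in basal libraries, a difference of -9.16 (SE 0.41, limma adjusted p = 2.99e-06), with -3.98 in K8iDRank and -3.301 in the parous libraries. Postn (periostin) was at 3.84, 7.86 and 4.42 against 948, 451 and 1299, Bgn (biglycan) at 6.41, 7.86 and 14.7 against 618, 703 and 826 and Mgp (matrix Gla protein) at 24.99, 24.1 and 15.5 against 724, 905 and 451. Fbln7 (fibulin 7) rested on 1 luminal read and was at 205, 99.2 and 185 in the basal libraries. Col1a1, the type I collagen chain that fibroblasts make in bulk, was at 12.8, 7.86 and 6.62 against 83.3, 78.5 and 76.1 (difference -3.04). Dcn (decorin), a fibroblast proteoglycan, was at 193, 209 and 938 against 549, 517 and 533, the luminal library of mouse 538 being above every basal one, and did not pass. Fibroblast markers were mostly basal too, but 5 of the 8 measured are also in other lists, so the lists are not independent. Their summed level was 247 to 961 in luminal and 984 to 1013 in basal libraries, and 23.5 to 66.0 against 451 to 467 without Dcn, with 6 of 8 passing as basal, and their part in the matrix result was not tested.

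Proteases and their inhibitors were basal in 10 and luminal in 3 of 19 (median -2.14). The basal group held secreted enzymes. Mmp2 (gelatinase A) rested on 1 luminal read and was at 144, 169 and 261 in basal libraries, Plau (urokinase) on 2 luminal reads and at 86.2, 82.7 and 76.1, and Plat (tissue plasminogen activator) was at 1.92, 1.05 and 2.94 against 468, 298 and 484. Timp3, a matrix-bound inhibitor, was at 416, 265 and 361 against 1817, 2463 and 3103 (difference -2.81). The 3 luminal genes are membrane-anchored. They were Mmp15, at 282, 217 and 174 against 20.1, 28.9 and 16.3, the serine protease St14 (matriptase), at 208, 197 and 236 against 66.1, 61.999 and 48.9, and its inhibitor Spint1, at 229, 176 and 185 against 34.5, 24.8 and 16.3. All 7 held their direction and passed in K8iDRank and in the parous libraries.

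Integrins, which bind the matrix, passed as basal in 8 and as luminal in 0 of 13, with a median of -0.902. Itga6 (CD49f) passed as basal too, but the cells were gated on it. Of the integrins called here 4 were called as basal in K8iDRank (median -1.20). Itga1, a collagen receptor subunit, was at 5.77, 5.77 and 4.42 in luminal and 139, 141 and 174 in basal libraries (difference -4.59, SE 0.34, limma adjusted p = 2.39e-05) and Itga9 at 5.13, 1.57 and 1.47 against 103, 78.5 and 168. Hemidesmosome and focal adhesion genes passed as basal in 10 and as luminal in 1 of 18. Tns1 (tensin 1), which links integrins to actin, was at 9.61, 15.2 and 11.04 against 251, 285 and 234, and Tns4, a short tensin, at 17.3, 13.1 and 9.57 against 125, 149 and 217. The groups did not overlap in Itga1, Itga9, Tns1 or Tns4.

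Tight junction genes, which seal the lumen, passed as luminal in 14 and as basal in 0 of 19 (median 2.77, K8iDRank 3.39). Claudins form the seal itself. Cldn4 was at 1252, 850.4 and 824 in luminal and 71.8, 41.3 and 10.9 in basal libraries, a difference of 4.85 (SE 0.56, limma adjusted p = 0.000288). Cldn3 was at 388, 258 and 222 against 30.2, 12.4 and 5.43 and Cldn8 at 132, 102 and 177 against 11.5, 4.13 and 5.43. In Cldn4 and Cldn3 the basal library of mouse 568 was lowest, and no basal library reached a luminal one in any of the 3. The scaffold Tjp3 was at 31.4, 27.3 and 23.5 in luminal libraries and had no read in the basal ones, at least 10.3-fold higher against 3 reads over the basal group. The related scaffold Tjp1 (ZO-1), at 66.6, 76.5 and 64.8 and 79.001, 107 and 70.6, did not pass. Adherens junction and desmosome genes divided, 4 luminal and 5 basal of 15, against 17.2% and 18.9% of all genes. E-cadherin (Cdh1) was at 1492, 1482 and 1249 against 422, 748 and 499.9 (difference 1.37, SE 0.26, limma adjusted p = 0.00324), whereas P-cadherin (Cdh3) rested on 2 luminal reads and was at 267, 119.9 and 212 in basal libraries. Epcam, which is used to sort epithelial cells, was at 1585, 1137 and 1107 against 441, 285 and 266. The desmosomal plakophilin Pkp2 was luminal, at 55.1, 64.5 and 150.1 against 4.31, 12.4 and 0, and Perp, a desmosomal membrane protein, basal, at 239, 142 and 146 against 829, 368 and 554. These 5 passed with the same direction in K8iDRank.

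Metabolic lists had medians nearer to 0, and some of their genes passed in opposite directions in K8iDRank. Glycolysis had 6 luminal and 2 basal genes of 19 (median 0.59, K8iDRank 0.03), and 4 basal genes without luminal mouse 531. Hexokinase 2 (Hk2), the first step, was at 245, 104 and 109 in luminal and 67.5, 33.1 and 21.7 in basal libraries (difference 1.92, K8iDRank 3.503, both past the test). Aldoa (aldolase A) was at 519.7, 366 and 903 against 164, 112 and 97.8 and Gpi1 (glucose phosphate isomerase) at 215, 212 and 299 against 74.7, 116 and 114, with differences of 2.19 and 1.26. Both were called the other way in K8iDRank, -1.17 and -1.22. On the basal side Ldhb (lactate dehydrogenase B) was at 14.7, 15.2 and 8.1 against 122, 70.3 and 70.6 and Pfkp (platelet phosphofructokinase) at 23.1, 34.1 and 55.2 against 158, 107 and 119.5, and both passed as basal in K8iDRank. The tricarboxylic acid cycle had 3 luminal and 1 basal calls among 23, against 17.2% and 18.9% of all genes. The basal call was lost without any 1 library except basal mouse 568. Of the luminal calls, Idh3g (isocitrate dehydrogenase) was at 130.1, 132 and 199 against 63.2, 74.4 and 43.5 and was called as basal in K8iDRank (-1.27). Mdh2 (malate dehydrogenase), at 445, 449.8 and 671 against 254, 269 and 234, did not pass in K8iDRank (-0.1998).

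Fatty acid and triglyceride genes were luminal in 15 and basal in 5 of 37 (median 0.52, K8iDRank 0.54). Dgat2, which makes triglyceride, was at 256, 239 and 552 in luminal and 38.8, 28.9 and 16.3 in basal libraries, a difference of 3.56 (SE 0.41, limma adjusted p = 0.000285). Elovl7, a fatty acid elongase, was at 164, 152 and 222 against 5.75, 8.27 and 21.7, and Btn1a1 (butyrophilin), which coats milk fat globules, at 261, 60.8 and 83.2 against 7.18, 12.4 and 5.43. The luminal library of mouse 531 stood above the other 2 in Btn1a1 and that of mouse 538 in Dgat2. All 3 passed as luminal in K8iDRank. Fasn, the fatty acid synthase, was at 122, 137 and 129 against 54.6, 37.2 and 48.9 (difference 1.46) and was called as basal in K8iDRank (-0.97). The basal genes named serve lipid uptake and are also expressed by fat or endothelial cells. Fabp4, a fatty acid binding protein of adipocytes, was at 41.01, 43.5 and 9.57 against 2587, 442 and 440.1, the fatty acid receptor Cd36 at 14.1, 18.4 and 5.89 against 349, 61.999 and 76.1, and Lpl (lipoprotein lipase) at 13.5, 5.24 and 5.89 against 81.9, 95.1 and 59.8. The basal library of mouse 531 was highest in Fabp4 and Cd36. Sterol synthesis had 6 luminal and 1 basal genes of 21, among them Sqle (squalene epoxidase), at 161, 102 and 125 against 60.3, 33.1 and 43.5, and Ebp, a sterol isomerase, at 273, 178 and 171 against 56.02, 82.7 and 43.5. The basal call was lost without luminal mouse 533 or basal mouse 531, and 2 were made without basal mouse 568. Neither Sqle nor Ebp passed in K8iDRank (0.42 and 0.896).

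Redox and retinoid enzymes held large differences in both directions, 9 luminal and 7 basal of 27. The basal calls fell to 4 without luminal mouse 533, basal mouse 538 or basal mouse 568 and to 3 with the Clec2d side as a term over all 30 libraries. Gpx3, the secreted glutathione peroxidase, was at 3946, 1831 and 3852 in luminal and 96.2, 70.3 and 10.9 in basal libraries, a difference of 6.12 (SE 0.69, limma adjusted p = 0.000248). Gclc and Gclm, the subunits of the enzyme that starts glutathione synthesis, were at 511, 365 and 675 against 86.2, 86.8 and 81.5 and 327, 384 and 365 against 122, 103 and 130.4. Both luminal groups lay above the basal ones, and the parous difference of Gclm, 0.75, did not pass. In the basal direction Aldh2 (mitochondrial aldehyde dehydrogenase) was at 87.2, 130.03 and 224 against 1044, 1443 and 940.1, and it passed as basal in K8iDRank (-1.31) and in the parous libraries (-1.97).

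Oxidative phosphorylation had 10 luminal and 21 basal genes of 90 (median -0.11, K8iDRank 0.96, parous 0.16), against 17.2% and 18.9% of all genes. With all 30 libraries in the fit the calls were 14 and 10, and with the Clec2d side as a further term 29 luminal and 1 basal (median 0.57). The mouse as a fixed block gave 2 and 10. Of the genes called here 21 were called in the opposite direction in K8iDRank and 4 in the same. Ndufb4, a small subunit of complex I, was at 78.2, 62.4 and 53.7 in luminal and 270.04, 347 and 353 in basal libraries (difference -2.31) and had a K8iDRank difference of 2.23. Cox6c, a small subunit of complex IV, was at 902, 792 and 875 against 2132, 2476 and 2635 (-1.49, K8iDRank 1.18). Uqcrc1, a core subunit of complex III, went the other way, 125, 123 and 149 against 64.6, 33.1 and 54.3 (1.41, K8iDRank -0.84), as did Ndufs8 of complex I, 76.3, 66.6 and 76.5 against 27.3, 16.5 and 32.6 (1.53, K8iDRank -0.49). All of these but Ndufs8 passed in both comparisons. Their parous differences lay between -0.02 and 0.24, and none passed. Ribosomal protein genes, whose near-identical pseudogenes make their counts uncertain, showed the same exchange. Of 89 tested, 1 was luminal and 65 basal (median -1.28), against 37 and 1 in K8iDRank (median 0.81), and 2 passed in the parous libraries (median -0.04). Mitochondrially encoded genes had 0 luminal and 19 basal calls of 22 (median -1.94), against 6 and 1 in K8iDRank (median 0.75) and 5 in either direction in the parous libraries (median -0.50). In both virgin comparisons the lineage with more of these transcripts was on the Clec2d-high side, and lineage and split cannot be told apart within either. The oxidative phosphorylation calls were 5 luminal and 17 basal without luminal mouse 531, 3 and 13 without luminal mouse 533, 4 and 13 without basal mouse 538 and 4 and 12 without basal mouse 568.

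**Figure D3:**
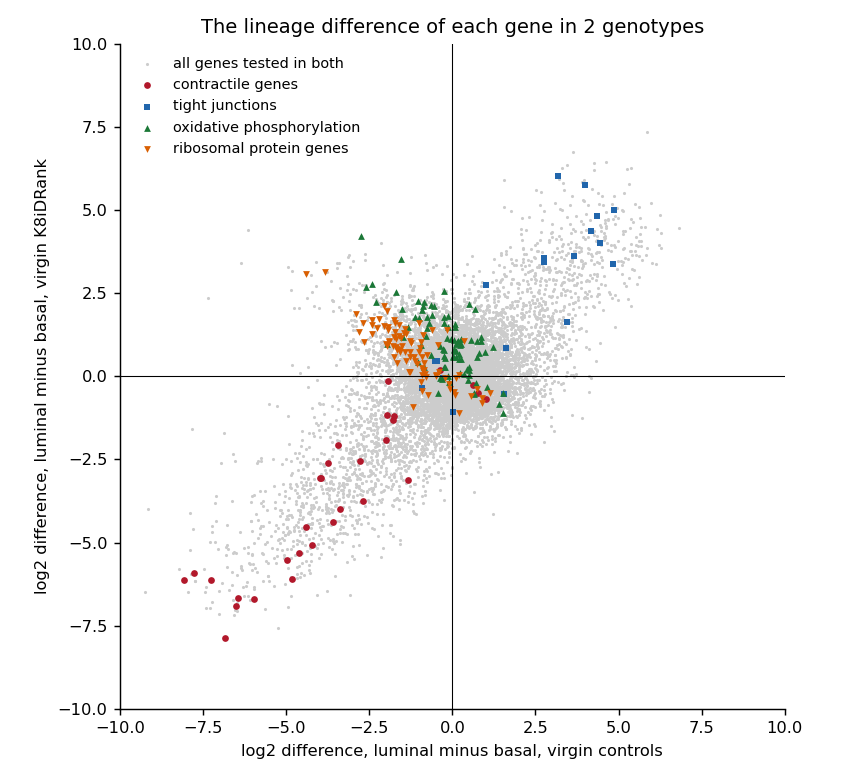
Each point is a gene, with its luminal minus basal log2 difference in virgin controls on the x axis and in virgin K8iDRank libraries, where the sides of the Clec2d split are exchanged, on the y axis. Contractile and tight junction genes lie mostly along the rising diagonal, while most ribosomal protein genes lie at upper left, negative in controls (median -1.28) and positive in K8iDRank (median 0.81).

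Solute carriers, the largest list, had 44 luminal and 28 basal genes of 172 (median 0.26), against 17.2% and 18.9% of all genes. Slc12a2 (NKCC1), the sodium, potassium and chloride cotransporter, was at 5706, 6278 and 9303 in luminal and 315, 405 and 103 in basal libraries, a difference of 4.87 (SE 0.46, limma adjusted p = 9.61e-05). Slc5a5, the sodium iodide symporter, was at 640.2, 465 and 1191 against 22.98, 16.5 and 5.43. Slc2a4 (GLUT4), the insulin-regulated glucose transporter, was basal, at 0.641, 2.62 and 1.47 against 134, 103 and 147, and so were Slc43a3, at 0.641, 2.1 and 0.736 against 105, 157 and 152, and the large neutral amino acid transporter Slc7a5, at 7.05, 8.39 and 2.21 against 121, 66.1 and 92.4. All but Slc7a5 (-1.13) passed with the same direction in K8iDRank.

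Innate defence genes had 4 luminal and 2 basal calls among 11, with 1 basal call without basal mouse 531. Wfdc2 and Slpi, both secreted WAP-domain proteins, lay on opposite sides. Wfdc2 was at 2604, 1607 and 3223 in luminal and 187, 132 and 38.04 in basal libraries (difference 4.59), whereas Slpi was at 13.5, 3.15 and 8.83 against 1994, 1848 and 2049 (difference -7.87, SE 0.41, limma adjusted p = 4.83e-06). The endotoxin co-receptor Cd14 was luminal, 99.3, 98.04 and 20.6 against 7.18, 4.13 and 5.43, with mouse 538 lowest. Secretory pathway genes had 8 luminal and 3 basal calls among 30, against 17.2% and 18.9% of all genes. The luminal calls were 4 without luminal mouse 531, with a median of -0.03 in place of 0.25, and 5 without luminal mouse 533 or basal mouse 568, and the basal calls were 1 without luminal mouse 533, basal mouse 531 or basal mouse 568 and with the mouse as a fixed block. The mucin Muc1, which coats the luminal surface, was at 64.1, 30.9 and 56.7 and rested on 1 basal read, and Rab25, a GTPase of apical recycling, was at 126, 130.03 and 283 against 18.7, 8.27 and 5.43. In K8iDRank 12 of the 30 secretory pathway genes kept their sign. Of those called here 4 were called the same way there and 2 the opposite way. For the innate defence genes called here these counts were 5 and 0.

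Cell cycle genes had 4 luminal and 2 basal calls among 17, against 17.2% and 18.9% of all genes. Mki67, expressed by cycling cells, was at 6.41, 62.9 and 25.02 in luminal libraries and rested on 1 read in basal ones, with mouse 533 highest, and was not tested without luminal mouse 533 or 538. Pcna, the replication clamp, was at 129, 102 and 75.8 against 560.2, 298 and 163 (difference -1.58), and did not pass without luminal (-1.38) or basal (-1.59) mouse 538. Neither passed in K8iDRank (-0.48 and 0.097). Without luminal mouse 533 the calls were 0 luminal and 2 basal, of 13 genes tested. Without luminal mouse 531 they were 2 and 2, without luminal mouse 538 they were 2 and 1, without basal mouse 531 or 568 they were 3 and 1, and without basal mouse 538 they were 5 and 0. Genes that respond to tissue dissociation were basal in 9 and luminal in 1 of 18 (median -0.77, K8iDRank 0.07, parous -0.11). The basal calls were 5 without luminal mouse 533, 6 without basal mouse 568, 5 with quantile normalization and 4 with the mouse as a fixed block. Junb was at 967, 1045 and 563 against 4439.9, 4534 and 4456, Egr1 at 1448, 1914 and 1952 against 3966, 6287 and 5515 and, on the luminal side, Atf3 at 2316, 1935 and 1828 against 1195, 756 and 326. Of these Egr1 alone passed in K8iDRank (-0.88).

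The summed markers of other cell types were higher in the basal libraries, apart from erythroid markers, whose ranges overlapped. For the sums of pericyte and of adipocyte markers this rested on 1 marker each. The Schwann cell markers summed to 297 to 511 in luminal and 1011 to 2930 in basal libraries, with 2 of 4 passing as basal and the library of mouse 538 highest. Pmp22, a membrane protein, was at 10.3, 7.34 and 7.36 against 481, 1046 and 397 and S100b, a calcium-binding protein, at 0, 1.05 and 1.47 against 34.5, 174 and 32.6. Sox10, which mammary epithelial cells also express and which did not pass, is in this list too. Without basal mouse 538 the 2 calls stayed 2. Endothelial markers summed to 54.5 to 88.6 in luminal and 266 to 714 in basal libraries, 7 of 8 passing as basal, with Pecam1 at 17.9, 8.91 and 5.15 against 67.5, 103 and 21.7 and the VEGF receptor Kdr at 15.4, 16.3 and 0.736 against 138, 66.1 and 76.1. Of the endothelial markers 2 of 6 tested passed without basal mouse 531, 4 of 7 without basal mouse 538, and 4 of 8 without luminal mouse 533 or 538. The call of Pecam1 was lost without each of these libraries, with differences of -2.21, -1.91, -2.34 and -1.99. Pericyte markers summed to 157 to 226 against 315 to 417, with 3 of 4 tested passing as basal. Among them Mcam was at 11.5, 12.6 and 8.83 against 182, 231 and 228, while Notch3 was luminal as above. Without Mcam the pericyte sums, which include the luminal Notch3, overlapped, at 145 to 214 against 109 to 186. Immune markers summed to 19.1 to 39.3 against 81.5 to 178 (4 of 5 basal), among them Cd74, at 6.41, 6.82 and 5.15 against 25.9, 20.7 and 16.3, whose call was lost without any 1 luminal library or without basal mouse 531. Adipocyte markers summed to 243 to 260 against 471 to 2644, and 1 of 3 was basal and 2 luminal. Without Fabp4 the luminal libraries were higher, with sums of 199 to 250 against 28.9 to 57.5. Erythroid markers summed to 2.21 to 16.7 against 4.13 to 38.8, with 1 of 1 tested passing as basal, which did not pass without luminal mouse 533 or 538 and was not tested without basal mouse 531 or 568. None of the markers measured was at 0 in every library of a lineage. Of 6 skeletal muscle markers listed 0 were in the deposited table, and the part of other cells in the basal results was not tested.

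**Figure D4:**
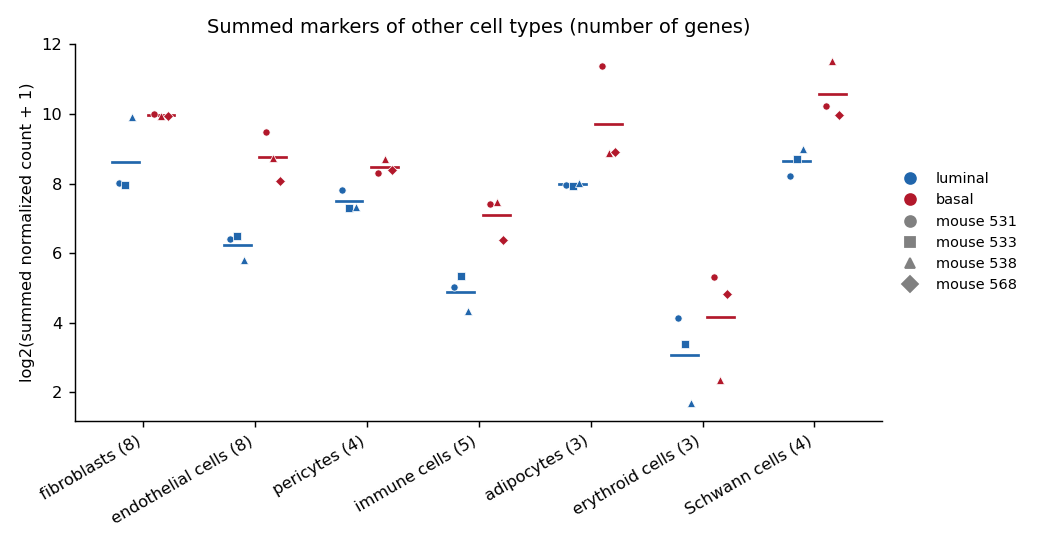
Summed normalized counts (y axis, log2 of the sum plus 1) of the markers of 7 other cell types (x axis, number of genes in brackets) in each virgin control library, blue for luminal and red for basal, with the marker shape giving the mouse and a bar at the group mean. The basal libraries lie above the luminal ones for endothelial, pericyte, immune, adipocyte and Schwann cell markers, and the basal library of mouse 538 is highest for Schwann cells.

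The lineage difference was then set beside the same difference in libraries that share none of the 6. In virgin K8iDRank, 3928 of 10927 genes (35.9%) passed, 1839 luminal and 2089 basal. Of the 1861 luminal genes of the controls, 1835 were tested there, and 760 (41.4%) passed as luminal and 172 (9.37%) as basal. Of the 2045 basal genes 2002 were tested, and 987 (49.3%) passed as basal and 223 (11.1%) as luminal. The groups were apart in opposite directions in 789 genes, among them Clec2d, whose level defines the sides. In controls alone they were apart in 25.8% of the genes tested with luminal and in 25.7% with basal above. In the Clec2d-high parous control libraries, 2348 of 10749 genes (21.8%) passed, and without the luminal library of mouse 494 the count was 1492. There 668 (37.9%) of the 1764 luminal genes tested were called as luminal and 2 as basal, and 1005 (49.9%) of the 2015 basal genes as basal and 13 as luminal. The lists that kept the sign of their median in all 3 comparisons included the keratins, luminal and basal transcription factors, contractile, basement membrane, interstitial matrix and tight junction genes. Medians of hormone receptors, the Notch pathway, adherens junctions and desmosomes, glycolysis, the tricarboxylic acid cycle, sterol synthesis, oxidative phosphorylation, cell cycle, the stress response and the single erythroid marker tested did not keep it.

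**Figure D5:**
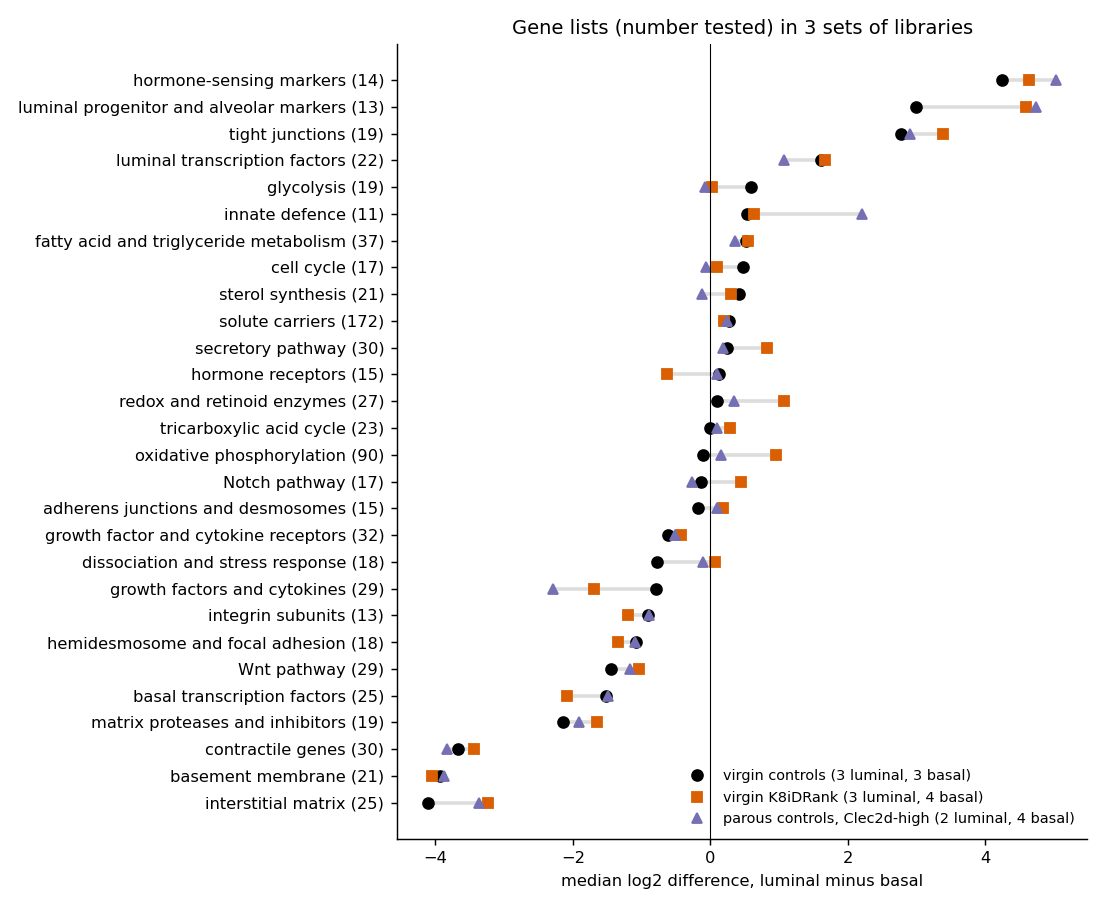
Median log2 difference, luminal minus basal (x axis), of the gene lists with at least 11 genes tested (y axis, number tested in brackets) in virgin controls (black circles), virgin K8iDRank (orange squares) and Clec2d-high parous controls (purple triangles). Interstitial matrix, basement membrane and contractile genes lie lowest and hormone-sensing markers highest in virgin controls, and oxidative phosphorylation moves from -0.11 in virgin controls to 0.96 in K8iDRank.

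Whether the lineage difference of virgin controls differed from that of parous controls was tested as an interaction over 3 luminal virgin, 3 basal virgin, 5 luminal parous and 4 basal parous libraries. Of 10986 genes 14 passed (0.127%), 10 with a parous difference shifted towards luminal and 4 towards basal. With the mouse as a block 28 passed, by edgeR 7, and without the basal parous library of mouse 532 none passed in limma, with 1101 at an unadjusted p below 0.05. Spp1 (osteopontin), a secreted phosphoprotein found in milk, was at 0.524 to 19.1 in luminal and 21.7 to 70.3 in basal virgin libraries, and at 104 to 183 and 7.96 to 27.9 in parous ones, an interaction of 6.698 (SE 0.96, limma adjusted p = 0.0136). Its groups overlapped in neither stage, and the side that was higher changed. Lpl was at 5.24 to 13.5 against 59.8 to 95.1 in virgin and 26.9 to 173 against 21.4 to 48.9 in parous libraries (4.1996). Fzd7 was at 3.68 to 8.91 in virgin and 26.9 to 47.9 in parous luminal libraries, below the basal ones in both stages (2.33). Muc15, a membrane mucin, was at 32.4 to 78.6 in virgin and 166 to 452 in parous luminal libraries (2.802), and Tnc (tenascin C) at 0 to 4.49 and 8.4 to 55.2 (5.89). In the other direction Ggt1, a glutathione-degrading enzyme, was at 111 to 225 in virgin and 13.2 to 31.95 in parous luminal libraries (-3.13), and Aldoa at 366 to 903 and 166 to 257 (-2.07). Gnai2, a G protein subunit, was at 833 to 1038 and 426 to 506 (-1.55), and Pdlim4 at 229 to 385 and 17.6 to 79.9 (-2.97). All virgin luminal libraries, but 3 of the 5 parous ones, lie on the Clec2d-low side, and 78 genes passed when those 3 alone stood for parous luminal cells.

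The 10 largest differences in each direction, among genes with a group mean of at least 100 and groups apart, lay between 5.69 and 6.82 in luminal and between 7.80 and 9.24 in basal direction. On the luminal side, beside Krt7, Gpx3 and Ehf, they were Piezo2, a mechanically gated channel, at 799.7, 631 and 1133 in luminal and 21.5, 16.5 and 0 in basal libraries, and Dkkl1, at 325, 258 and 498 against 17.2, 4.13 and 0. Nrxn3, a neurexin cell adhesion protein, was at 597, 314 and 399.6 against 12.9, 12.4 and 0, and Tfcp2l1, a grainyhead-like factor, at 130.1, 96.5 and 104 against 8.62, 0 and 0. Fcgbp, a mucus protein, Elapor1 and Fam174b were at 119.96 to 195, 59.6 to 169 and 143 to 325 in luminal and at 0 to 11.5, 0 to 2.87 and 0 to 11.5 in basal libraries. In 9 of these 10 genes the basal library of mouse 568 had no read. As 1 read was worth more normalized counts in basal than in luminal libraries, the sizes of the differences are not directly comparable between directions. On the basal side, beside Cxcl14, Ccn2, Id4, Krt5 and Slpi, Cnn1 (calponin 1), a smooth muscle protein, was at 0.641, 2.1 and 8.1 against 1158, 690.3 and 1114 and Ecrg4, a secreted peptide precursor, at 2.56, 3.67 and 6.62 against 1089, 1773 and 853. Ackr4, an atypical chemokine receptor, had no read in luminal libraries and was at 188, 260.4 and 272 in basal ones, at least 386-fold higher against 3 reads over the luminal group. Emb (embigin) rested on 2 luminal reads and was at 273, 364 and 315. All 10 luminal and 9 of the 10 basal genes passed in the same direction in K8iDRank and in the Clec2d-high parous libraries. The exception was Olfr1250, listed as an olfactory receptor gene of a family with similar members, at 0, 0.524 and 0 in luminal and 84.7, 703 and 293 in basal libraries, with -1.58 in K8iDRank and -2.84 in the parous libraries.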

How the data were processed

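RNA of FACS-sorted luminal and basal cells was sequenced with a QuantSeq 3′ kit with a 6-nt unique molecular identifier. The authors trimmed reads with BBDuk, extracted identifiers with UMI-tools, aligned to GRCm39 with Bowtie2, removed duplicates with UMI-tools, passed the remaining reads to the nextpresso pipeline, checked quality with FastQC 0.11.9, and deposited a signal per gene, the read count divided by a DESeq2 size factor, for 11137 genes. Whether counting used strand is not given in the sources used here. All 30 columns were mapped to samples by their labels. Dividing by the step of each library gave whole reads for 100% of the values (tolerance 0.1). No replicate pair held the same library. Nothing in the labels names a separate culture or pool, and each library is 1 mouse.

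A gene was tested if its value exceeded 10 in 25% or more of the libraries in that comparison. The test was limma 3.58.1 with its trend option and no covariate, and values were transformed as log2(value + 1). Same-mouse luminal and basal libraries deviated together slightly (r across genes of 0.141 for mouse 531 and 0.090 for mouse 538, other pairs -0.12 to 0.02), and mouse as a block was an alternative, beside other pseudocounts, filters and scalings, libraries left out, and edgeR 4.0.16 and DESeq2 1.42.0 on the recovered reads. The limma and edgeR fits of the virgin control comparison and the limma interaction fit were run on simulated counts with known changes. Members and gene lists were chosen with earlier results of these data known, and some genes are not reported here and were left out of their lists. Genes are named by rule: the markers, Clec2d and Tnfrsf11a, up to 5 per list and direction with the lowest adjusted p and groups apart, the 10 largest differences per direction, and up to 5 interaction genes per direction. Gata3, Sox10, Id3, Tnfsf11, Csn3, Csn2, Vcl, Myl6, Cnn2, Dcn, Itga6, Cd24a, Tjp1 and Fasn are given only as values and were chosen after these were seen. Intervals of counting are not given, as errors come from replicates. Coordinates are those of GENCODE vM39 on GRCm39, and promoter sequences are from RefSeq on GRCm38.p6. R 4.3.3 and Python 3.11.15 were used. The parous K8iDRank libraries enter only the fits of all 30 libraries.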

Additional observations from a re-analysis of the deposited data

Results flagged for a closer look

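The interaction of lineage with parity flagged 9 genes, and the levels stand above. The luminal minus basal difference was shifted in parous controls by 6.698 for Spp1 (SE 0.96, limma adjusted p = 0.0136), 5.89 for Tnc, 4.1996 for Lpl, 2.802 for Muc15 and 2.33 for Fzd7. It was shifted the other way by -3.13 for Ggt1 (SE 0.44, limma adjusted p = 0.0136), -2.97 for Pdlim4, -2.07 for Aldoa and -1.55 for Gnai2. The adjusted p of the others named lay between 0.0374 and 0.0421. The sides of the Clec2d split are unequal between the stages, and their part in these shifts was not tested.

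A further 12 genes were flagged because every luminal library lay on one side of every basal library in virgin controls and on the other side in virgin K8iDRank. This difference between the genotypes was not tested, and these 12 are only those named above among 789 genes that behave in this way. In controls alone the groups were apart in 25.8% of 10796 genes with luminal and in 25.7% with basal above. Higher in basal control cells, with K8iDRank differences of the opposite sign, were Clec2d (4.39), Ndufb4 (2.23), Cox6c (1.18), Id3 (0.67) and Junb (0.32). Clec2d defines the split, so its own change of direction was given beforehand. Higher in luminal control cells were Idh3g (-1.27), Gpi1 (-1.22), Aldoa (-1.17), Fasn (-0.97), Uqcrc1 (-0.84), Mfge8 (-0.64) and Ndufs8 (-0.49). In controls the Clec2d-high side was basal and in K8iDRank luminal, and Rank deletion, split and lineage cannot be told apart here.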

How the results depend on the processing

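The count of 3906 genes stayed between 2657 and 5299 under the alternatives, apart from the filter on a mean of at least 50, which tested 5247 genes and called 2334. Leaving out 1 library gave 2657 (without luminal mouse 533) to 3401. The mouse as a replicate block gave 4276 and as a fixed block, in which mice with both lineages alone inform, 2990. List counts that a block moved by more than 1.5 times stand beside their lists, or rest on 1 or 2 calls, the fixed block ended the calls of Sox9, Vdr, Rock1, Itga6, Atf3 and Cd74, and the parous comparison was not fitted with a block. Array weights gave 5299, but did not converge. Quantile normalization moved the median of all genes to 0.11. The K8iDRank count of 3928 ranged from 3014 to 3862 without 1 library and was 3888 with the block. The interaction count of 14 was 28 with the block, 7 by edgeR, 78 with Clec2d-low luminal parous libraries alone, and 0 (without basal parous mouse 532) to 7 without 1 library, apart from 24 without basal virgin mouse 531 and 31 without luminal parous mouse 494. The parous count of 2348 became 1492 to 2396 without 1 library.

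With the Clec2d side as a term over all 30 libraries, signs reversed for Id3 (0.87), Dcn (0.12), Fasn (-0.033), Ndufb4 (0.19) and Cox6c (0.27), and the cause was not tested. Of 3337 values of 168 named called genes 3279 kept direction and side of the threshold, 54 lost the call and 4 reversed, and 144 genes kept theirs throughout. Of 736 list medians 47 moved by more than the spread between libraries and 25 changed sign. Depth limits low basal levels.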
